A study of Mus musculus with 336 samples.

Results

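The glucocorticoid receptor gene Nr3c1 and 9 genes known as direct targets of the receptor were followed in 3 RNA-seq time courses of mouse fibroblasts and liver. The targets were Tsc22d3, Fkbp5, Zbtb16, Sgk1, Dusp1, Errfi1, Ddit4, Klf9 and Tat. The genes were listed by name, with no threshold on a measured value but with earlier results of these data known, and symbols were mapped from the gene IDs of the deposited tables. They are 10 of the 47642 gene IDs that the 3 tables hold together, and all 10 were found in each table. In GRCm38 with the GENCODE M21 annotation, Tsc22d3 spans chrX:140539528-140600659, Fkbp5 spans chr17:28399094-28517527, Zbtb16 spans chr9:48654297-48836222, Sgk1 spans chr10:21882184-21999903. In the same annotation Dusp1 spans chr17:26505590-26562128, Errfi1 spans chr4:150853919-150868892, Ddit4 spans chr10:59949669-59951834, Klf9 spans chr19:23141226-23168134 and Tat spans chr8:109990437-109999803.

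Glucocorticoids enter the cell and bind the receptor, which heat shock protein chaperones hold ready in the cytoplasm. The bound receptor moves to the nucleus, where it binds short palindromic DNA elements and raises or lowers transcription of nearby genes. In liver the receptor is known for inducing enzymes of gluconeogenesis and amino acid breakdown and for damping inflammatory genes, and in cultured cells a brief glucocorticoid pulse is used to set circadian clocks to a common phase. Several targets act back on the hormone response, such as Fkbp5, whose protein lowers the receptor's affinity for hormone.

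All samples were labelled C57BL/6 and were either wild type (WT) or Bmal1-/- (KO), which lack the clock transcription factor BMAL1. Confluent mouse skin fibroblasts and liver slices of about 500 micron from adult mice received 100 nM dexamethasone, a synthetic glucocorticoid, for 15 min and were then washed. Fibroblasts and slices were harvested from 48 to 117 h after the pulse, at intervals of 3 h labelled CT00 to CT69, so that each genotype had 24 time points. The labels state 3 wells per time point and list 3 sequencing runs for each, and the deposited tables give 1 value per time point, so the spread between wells cannot be seen. A shorter course of samples labelled mouse liver, with no age in the labels, had 3 replicates per genotype at T00, T06, T12 and T24. Its labels carry the same treatment text but give no time from the pulse to T00, so T00 cannot be placed before or after dexamethasone, and no sample without dexamethasone was analysed here. The labels do not say how many animals or fibroblast lines were used, so the p-values measure only the spread among these samples, which may be technical. In both long courses the 2 genotypes carry different sequencing pool or lane labels, so genotype and lane cannot be told apart there.

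Levels are given as FPKM, a read abundance corrected for transcript length and for library size, so they can be compared between genes within a table but were normalized separately in each table. Differences are on the log2(FPKM + 1) scale, which understates changes of low genes. They were tested with limma over all genes averaging 1 FPKM or more, and a gene was called at a Benjamini-Hochberg adjusted p below 0.05. The deposited values carry no read counts, so depth is unknown. FPKM summed to between 479770 and 2121560 per library. The short-course library KO T24 replicate 2 had the lowest sum of its table and the lowest median correlation with the others (r = 0.777), and in KO T12 replicate 2 the 10 most abundant genes took 59.5% of all FPKM. In the slices WT CT66 and WT CT69 had summed macrophage markers of 3520 and 3419 FPKM, against 173 to 1544 in the other WT libraries, and KO CT09 had summed hepatocyte markers of 73386 FPKM. Arntl, the gene that encodes BMAL1, was read at 2.57 to 5.82 FPKM in KO slices and 5.67 to 7.84 FPKM in KO fibroblasts, and in the short course it was higher in KO (2.71 to 3.31 FPKM) than in WT (0.126 to 0.392 FPKM) at T00. The labels do not say which exons are missing, so the level of Arntl does not check the deletion. Hepatocyte markers summed to 5420 to 35345 FPKM in the short course, 1167 to 73386 FPKM in the slices and at most 0.743 FPKM in the fibroblasts, where 4 fibroblast markers summed to 1260 to 4979 FPKM. Albumin is listed at 0 in all 3 WT libraries at T00 of the short course.

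To place the members against the receptor's known DNA element, the half-site TGTTCT was searched on both strands of RefSeq promoter windows of GRCm38.p6, each with 250 bases before and 50 bases after a transcription start. Nr3c1 was left out of the search of member windows. Among the other members windows were found for 8 and not for Zbtb16, 16 windows in all. Sgk1 had 6 of these windows and Tsc22d3 had 3. The half-site was in 4 of these 16 windows, 3 of Sgk1 and 1 of Tsc22d3, and in 6233 of all 32851 windows. The full palindrome, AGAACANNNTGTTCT, was in 3 of all windows (0.00913%), of the genes Sgk1, Acnat2 and Gm35041. A looser form, GNACANNNTGTNC, which contains the full palindrome, was in 0.475% of all windows and in 1 window of the members, the same Sgk1 window. That window, chr10:21993640-21993939 on the plus strand, and the Tsc22d3 window, chrX:140600473-140600772 on the minus strand, are shown because the first holds the palindrome and the other the only half-site found for Tsc22d3. Capitals mark the half-sites and, in Sgk1, the palindrome at bases -189 to -175 from the start site, with a further half-site at -242 to -237. In Tsc22d3 the half-site lies at -185 to -180. These matches are letters in a window and not measured binding sites.
Sgk1: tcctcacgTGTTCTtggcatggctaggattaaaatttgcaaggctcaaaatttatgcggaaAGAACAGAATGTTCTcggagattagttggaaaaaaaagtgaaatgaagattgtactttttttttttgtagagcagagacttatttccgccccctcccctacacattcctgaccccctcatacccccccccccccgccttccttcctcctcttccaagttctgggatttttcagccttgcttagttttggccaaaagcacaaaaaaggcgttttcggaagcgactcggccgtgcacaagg
Tsc22d3: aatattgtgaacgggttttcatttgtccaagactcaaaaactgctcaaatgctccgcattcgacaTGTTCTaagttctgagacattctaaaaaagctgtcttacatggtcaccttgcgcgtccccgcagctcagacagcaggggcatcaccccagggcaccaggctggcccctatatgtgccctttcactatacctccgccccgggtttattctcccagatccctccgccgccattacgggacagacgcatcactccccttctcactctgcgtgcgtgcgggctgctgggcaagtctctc

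The short liver course showed the widest changes. In WT 5 of the 10 members rose from T00 to T06 and none fell, at a background of 46.6% of 12547 genes called in either direction, 2881 of them higher. In KO 6 members rose and none fell, where 20.6% of genes were called higher and 44.0% in either direction. Counted in both directions, the members' share was near the background in WT and somewhat above it in KO. The median change of the 10 members was 0.95 in WT and 1.12 in KO, against -0.05 and -0.09 over all genes tested. At T12 6 members passed in WT, where 50.5% of genes did, and 8 in KO, where 55.3% did. T06, T12 and T24 were each compared with the same T00 libraries. Tested over the 4 times together, 7 members changed in WT and 8 in KO, where 64.4% and 72.2% of genes did.

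Nr3c1, the receptor itself, ran from 5.97 to 12.6 FPKM over the short course. Its FPKM at T00 were 12.2, 10.6 and 10.8 in WT and 9.97, 11.4 and 11.8 in KO. At T06 they were 10.1, 11.8 and 12.1 in WT and 8.01, 8.46 and 9.22 in KO. The 3 WT values overlapped between the times, and the 3 KO values at T06 lay below those at T00. The change from T00 to T06 was 0.01 ± 0.15 (SE, n = 3 against 3) in WT (limma, adjusted p = 0.968) and -0.33 ± 0.15 in KO (adjusted p = 0.0846). At T12 the KO values of 9.56, 5.97 and 8.65 FPKM also lay below all 3 KO values at T00. The KO difference from T00 was -0.43 ± 0.15 and passed the threshold (adjusted p = 0.0234). It missed it without KO T12 replicate 2 and KO T24 replicate 2 (-0.25, adjusted p = 0.17).

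Ddit4, a stress-induced inhibitor of the growth kinase complex mTORC1, had the largest change of the 10 members from T00 to T06 in WT. It was at 2.54, 1.42 and 1.82 FPKM in WT at T00 and at 35.4, 27.6 and 28.7 FPKM at T06. In KO it went from 5.82, 7.36 and 6.42 FPKM to 32.0, 31.4 and 38.3 FPKM. In both genotypes every T06 value lay above every T00 value, and at T00 every KO value lay above every WT value. The change was 3.44 ± 0.25 in WT (limma, adjusted p = 6.16e-09), a ratio of mean FPKM of 15.9, and 2.21 ± 0.25 in KO (adjusted p = 2.17e-06), a ratio of 5.19. By T24 the FPKM were 19.7, 20.7 and 18.7 in WT and 22.7, 21.1 and 13.3 in KO.

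Dusp1, a phosphatase that switches off MAP kinases, was at 25.7, 18.7 and 17 FPKM in WT at T00 and at 156, 175 and 145 FPKM at T06. In KO it was at 11.2, 43.0 and 22.4 FPKM at T00 and at 126, 103 and 99.7 FPKM at T06. No T06 value overlapped T00 in either genotype. The rise was 2.91 ± 0.35 in WT (limma, adjusted p = 2.94e-06) and 2.24 ± 0.35 in KO (adjusted p = 6.31e-05), and at T24 the ratio of mean FPKM to T00 was 7.15 in WT and 4.55 in KO.

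Sgk1, a kinase that controls ion transport and is a classical early target of corticosteroids, has the palindrome printed above. Its FPKM rose from 7.13, 9.20 and 8.80 to 47.2, 52.2 and 41.3 between T00 and T06 in WT. In KO they rose from 7.60, 21.7 and 13.1 to 37.0, 39.1 and 54.8. The changes were 2.35 ± 0.26 (limma, adjusted p = 9.48e-07) and 1.65 ± 0.26 (adjusted p = 6.48e-05). In WT the T12 values of 25.6, 30.6 and 28.0 FPKM all lay below the T06 values and above the T00 values.

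Fkbp5, the chaperone partner that lowers hormone binding, was at 8.77, 5.84 and 6.59 FPKM in WT at T00 and at 17, 15.7 and 17 FPKM at T06. KO values were 1.91, 3.19 and 2.94 FPKM at T00 and 9.18, 13.1 and 12.7 FPKM at T06. KO lay below WT without overlap at both times. Fkbp5 rose by 1.14 ± 0.18 in WT (limma, adjusted p = 7.73e-05) and 1.79 ± 0.18 in KO (adjusted p = 4.67e-07), and at T12 the ratio of mean FPKM to T00 was 2.33 in WT and 5.86 in KO.

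Zbtb16, a zinc finger transcription factor, was at 3.27, 1.47 and 1.29 FPKM in WT at T00, at 8.71, 9.42 and 8.79 FPKM at T06 and at 13, 12.9 and 12.4 FPKM at T24. KO values were 3.84, 4.04 and 4.48 FPKM at T00, 10.6, 11.1 and 11.1 FPKM at T06 and 11, 3.75 and 7.19 FPKM at T24. WT values at T24 lay above all values at T00, whereas in KO the lowest T24 value, from replicate 2, fell below T00. The rise to T06 was 1.79 ± 0.29 in WT (limma, adjusted p = 8.13e-05) and 1.23 ± 0.29 in KO (adjusted p = 0.00243).

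Errfi1, an inhibitor of the EGF receptor, was at 355, 286 and 234 FPKM in WT at T00 and at 437, 533 and 500 FPKM at T06, without overlap. KO values were 226, 249 and 197 FPKM at T00 and 362, 541 and 475 FPKM at T06. The change was 0.76 ± 0.31 in WT, which missed the threshold (limma, adjusted p = 0.0508), and 1.02 ± 0.31 in KO (adjusted p = 0.0135). The WT difference passed in 5 of the 24 fits that each left out 1 library: WT T00 replicate 1, and replicates 1 and 2 of KO T12 and of KO T24, which share the error estimate (adjusted p = 0.0203 to 0.0437). The KO difference missed the threshold without KO T06 replicate 2 (0.89, adjusted p = 0.0547). At T24 WT stood at 659, 592 and 727 FPKM and KO at 400, 145 and 207 FPKM.

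Tsc22d3, which encodes the glucocorticoid-induced leucine zipper, was called lower and never higher than at T00 within a genotype of the short course. Its FPKM were 50.4, 31.2 and 44.9 in WT at T00, 50.5, 41.8 and 47.4 at T06 and 23.9, 29.1 and 23.2 at T24. In KO they were 76.6, 71.2 and 72.7 at T00, 67.6, 47.5 and 63.5 at T06 and 36.5, 19.4 and 32.0 at T24. In both genotypes the T24 values lay below all T00 values, a fall of 0.69 ± 0.22 in WT (limma, adjusted p = 0.0104) and 1.34 ± 0.22 in KO (adjusted p = 2.39e-05). At T24 61.2% of all genes in WT and 67.6% in KO were called, and 7 and 6 of the 10 members.

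Klf9, a Krüppel-like transcription factor, did not pass the threshold at any time in either genotype, with differences from T00 of -0.12 to 0.20. Its FPKM ran from 21.4 to 30.5 over the WT libraries and from 15.1 to 21.5 over the KO libraries. Tat, tyrosine aminotransferase, the liver enzyme long used as a marker of glucocorticoid induction, was at 627, 463 and 412 FPKM in WT at T00 and at 296, 242 and 283 FPKM at T06. In KO it was at 305, 490 and 562 FPKM at T00 and at 230, 37.5 and 87.9 FPKM at T24. At T12 Tat overlapped its T00 values in both genotypes, at 351, 561 and 521 FPKM in WT and 601, 116 and 513 FPKM in KO. The WT values at T06 lay below those at T00, but the difference of -0.85 ± 0.58 missed the threshold (limma, adjusted p = 0.233). In KO Tat fell by 2.25 ± 0.58 to T24 (adjusted p = 0.00204), and by 1.61 without KO T12 replicate 2 and KO T24 replicate 2 (adjusted p = 0.0024).

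**Figure D1:**
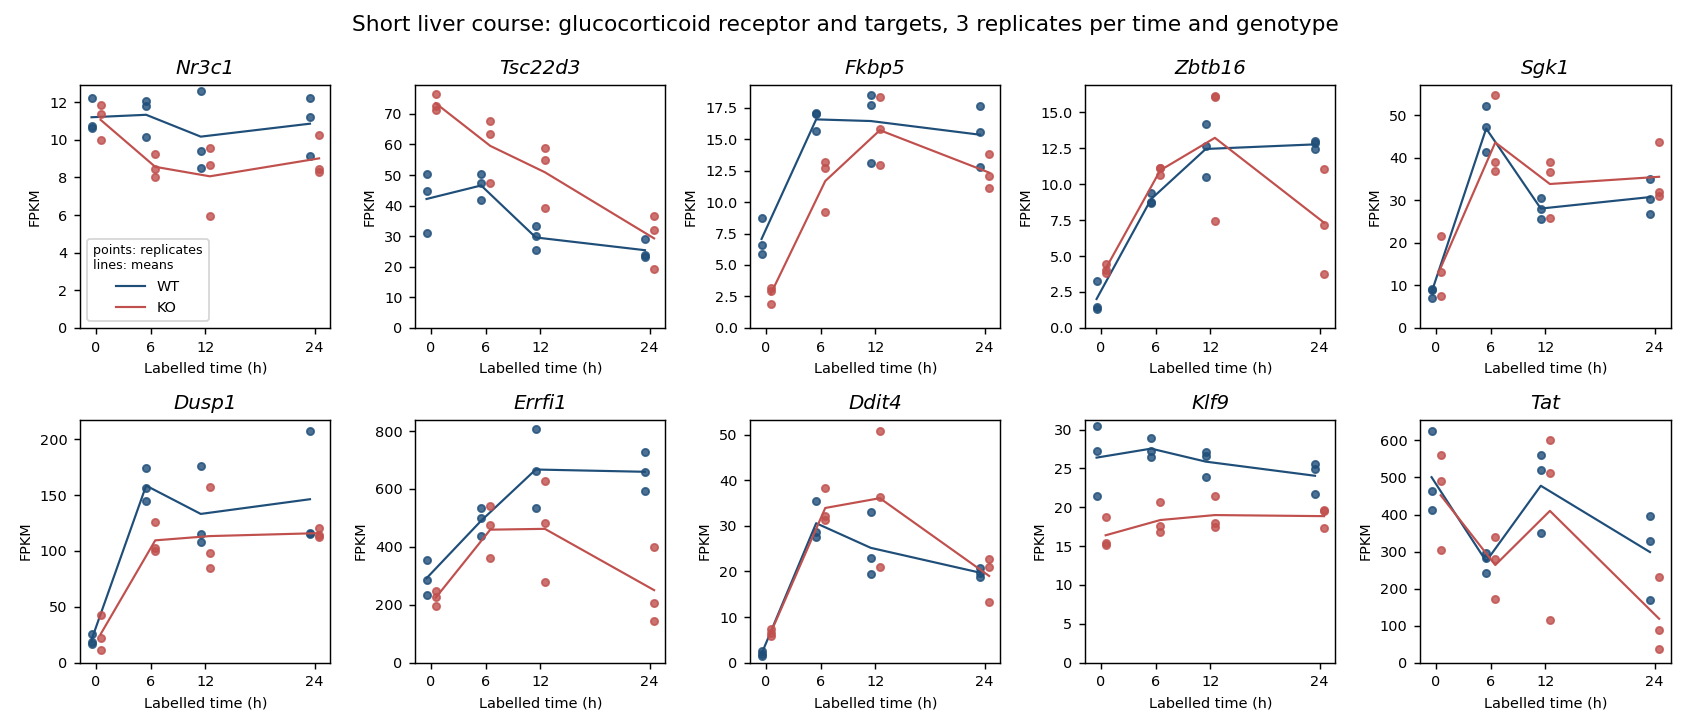
FPKM of the 10 genes in the short liver course by labelled time in hours, with points for the 3 replicates and lines through the means of WT (blue) and KO (red). Ddit4, Dusp1, Sgk1, Fkbp5 and Zbtb16 lie higher at T06 than at T00 in both genotypes, and Tsc22d3 lies lower at T24.

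Markers of other cell types moved over the same interval. At T06 3 of 5 endothelial markers were higher and 1 lower in each genotype, 4 of 4 cholangiocyte markers were higher in each, and 5 of 7 macrophage and Kupffer markers in WT and 3 of 7 in KO. Endothelial markers summed to 31.2 to 43.4 FPKM at T00 in both genotypes together and to 134 to 285 FPKM at the later times, and cholangiocyte markers to 3.15 to 4.60 FPKM at T00 and 14.3 to 188 FPKM later. Macrophage and Kupffer markers went from 121 to 161 FPKM in WT and 103 to 115 FPKM in KO at T00 to 170 to 324 FPKM and 136 to 263 FPKM. Pearson r with the endothelial sum on the log2 scale over the 12 WT libraries was 0.94 for Dusp1, 0.93 for Ddit4 and Sgk1, 0.92 for Zbtb16, 0.88 for Fkbp5 and 0.84 for Errfi1. Over the 12 KO libraries it was 0.93 for Fkbp5, 0.88 for Ddit4 and Dusp1, 0.80 for Sgk1, 0.78 for Zbtb16 and 0.56 for Errfi1. These describe libraries that share the step from T00. Hepatocyte markers in KO summed to 12103 to 24465 FPKM at T00 and 5420 to 11187 FPKM at T24. Over the KO libraries r with that sum was 0.73 for Tat and 0.75 for Tsc22d3, and over the WT libraries -0.21 and 0.52. Albumin, a hepatocyte marker, is listed at 0 in all 3 WT libraries at T00, so the WT sum there lacks it. The WT r therefore cannot be set against the KO r. The part of these markers in the results was not tested. In bulk samples such as these, fewer cells of a type and less RNA per cell cannot be told apart.

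Of 20 further genes known to be induced by glucocorticoids, 19 were tested and 16 passed in WT at T06, 15 higher and 1 lower, with a median of 1.92, where 46.6% of all genes passed. In KO 14 passed, 13 higher and 1 lower, with a median of 1.48, where 44.0% of all genes passed. Mt2, a metallothionein, rose by 7.21 ± 0.45 in WT and 5.33 ± 0.45 in KO (limma, adjusted p = 8.93e-10 and 4.58e-08). Per1, the clock gene that links the receptor to the oscillator, went from 4.51 to 5.25 FPKM at T00 to 23.2 to 28.0 FPKM at T06 in WT and from 2.25 to 2.63 FPKM to 11.5 to 14.9 FPKM in KO. Nfkbia, an inhibitor of NF-κB, rose by 3.32 ± 0.18 and 3.86 ± 0.18, and Cebpd, a C/EBP transcription factor, by 3.18 and 3.05. The gene that fell in both was Klf15, named after its values were seen, by 1.35 in WT and 1.11 in KO.

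The other lists were read against the same background. Of 10 hepatic enzymes and proteins that depend on glucocorticoids, 6 passed in WT at T06, 1 higher and 5 lower, and 4 in KO, 1 higher and 3 lower. Pck1, the gluconeogenic enzyme, stood at 756 to 873 FPKM in WT at T00 and 57.8 to 116 FPKM at T24, a fall of 3.23 ± 0.35 (limma, adjusted p = 3.75e-07), and in KO at 305 to 334 FPKM and 13.5 to 30.4 FPKM. The riser was Igfbp1, which encodes a liver protein that binds insulin-like growth factors in blood, by 3.58 ± 0.65 in WT and 3.11 ± 0.65 in KO. Of 11 inflammatory genes that glucocorticoids are known to repress, 9 were tested, and 8 rose in WT and 7 in KO at T06 with none lower. Among them the chemokine gene Cxcl1 went from 9.24 to 19.3 FPKM to 448 to 896 FPKM in WT and from 4.98 to 5.23 FPKM to 520 to 582 FPKM in KO. Of 15 genes for receptor chaperones, cofactors and steroid handling, 14 were tested, and 4 were higher and 4 lower in WT, 4 and 2 in KO. Nrip1, a corepressor of nuclear receptors, rose by 1.89 ± 0.18 in WT and 1.62 ± 0.18 in KO, and Hsp90aa1, a receptor chaperone, by 1.94 ± 0.33 and 1.73 ± 0.33.

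Genotype was compared in the short course at each time and over all 4 times. At T00 4 members differed, where 4.45% of all genes did: Ddit4 and Tsc22d3 were higher in KO by 1.38 ± 0.25 and 0.81 ± 0.22, and Fkbp5 and Klf9 lower by 1.13 and 0.65 (limma, adjusted p = 0.00259, 0.0371, 0.000728 and 0.00421). At T06 only Klf9 passed among the members (-0.56 ± 0.13, adjusted p = 0.0242, background 1.67%), at T12 none (2.40%) and at T24 only Errfi1 (-1.52 ± 0.31, adjusted p = 0.00349, background 17.9%). Klf9 in KO lay below WT without overlap at each of the 4 times. Averaged over the 4 times, 6 of the 10 members differed, where 18.7% of genes did, with Tsc22d3 (0.51 ± 0.11) and Ddit4 (0.47 ± 0.13) higher in KO and Klf9 (-0.49 ± 0.06), Fkbp5 (-0.49 ± 0.09), Errfi1 (-0.64 ± 0.15) and Nr3c1 (-0.23 ± 0.08) lower. With 1 mean per genotype and replicate number, the replicate block, only Klf9 passed, and adjusted p for the other 5 were 0.0619 to 0.186. The difference for Nr3c1 was also lost in 15 of the 24 fits that each left out 1 library.

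The change over time was tested for a difference between genotypes. Over all times no member passed the interaction of time and genotype, where 1.75% of genes did, and the adjusted p of Fkbp5, Ddit4 and Zbtb16 were 0.0937, 0.0953 and 0.117. From T00 to T06 no member differed (0.0877% of genes), with a difference for Ddit4 of -1.23 ± 0.36 (limma, adjusted p = 0.492), and from T00 to T12 none either (0.279% of genes). From T00 to T24 2 members changed less in KO, Zbtb16 by -1.65 ± 0.41 (adjusted p = 0.0275) and Ddit4 by -1.46 ± 0.36 (adjusted p = 0.0278), where 5.10% of genes differed. Without KO T12 replicate 2 and KO T24 replicate 2 these were -1.30 and -1.55 (adjusted p = 0.0111 and 0.00862). At T24 itself neither gene passed for a difference between genotypes (adjusted p = 0.053 and 0.858).

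In the fibroblasts most tested members changed between 48 and 117 h after the pulse. Tat had at most 0.221 FPKM and was not tested. Over 24 h the slope passed in 7 of 9 tested members in WT, where 31.1% of 14658 genes were called, and in 6 of 9 in KO, where 26.3% of 14713 genes were. These shares stand above the background, and the directions were mixed: 4 rose and 3 fell in WT, 4 rose and 2 fell in KO. Time points follow each other in 1 course per genotype, so these p-values from limma measure scatter around a line and not the spread between cultures.

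Nr3c1 ran from 20.7 to 26.8 FPKM with a median of 23.2 in WT and from 21.3 to 29.2 FPKM with a median of 24.4 in KO. WT and KO overlapped over nearly the whole range, and KO was the higher at 16 of 24 times. Its slope was 0.06 ± 0.02 per 24 h in WT (limma, adjusted p = 0.0157) and 0.06 ± 0.02 in KO (adjusted p = 0.0655). The authors' own interval around a single Nr3c1 value reached a median of 30.5% above the value, the widest of the 9 genes, against 15.2 to 20% for the others.

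Fkbp5 and Ddit4 declined in both genotypes. Fkbp5 in WT ran from 62.8 to 90.9 FPKM with a median of 71.0, highest at CT06, and its means were 79.4 ± 6.62 FPKM (SD, n = 8 time points) on day 1 and 65.5 ± 2.55 FPKM on day 3. In KO the range was 78.4 to 98.9 FPKM, with means of 93.0 ± 4.52 on day 1 and 85.3 ± 4.83 on day 3. The slopes were -0.13 ± 0.02 in WT (limma, adjusted p = 7.18e-05) and -0.06 ± 0.02 in KO (adjusted p = 0.0128). Ddit4 went from 44.9 ± 1.95 to 38.5 ± 2.12 FPKM in WT and from 70.3 ± 3.93 to 52.7 ± 1.31 FPKM in KO, and in KO every day 3 value lay below every day 1 value. Its slope was -0.10 ± 0.02 in WT and -0.20 ± 0.01 in KO (adjusted p = 5.64e-05 and 2.62e-13), and the difference of slopes was -0.10 ± 0.02 (adjusted p = 7.18e-05).

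Dusp1 and Zbtb16 went up in both. Dusp1 had day 1 means of 18.5 ± 3.46 FPKM in WT and 13.5 ± 3.26 FPKM in KO, and day 3 means of 25.3 ± 1.86 and 17.4 ± 3.50 FPKM, with slopes of 0.24 ± 0.03 and 0.20 ± 0.05 (limma, adjusted p = 6.31e-06 and 0.00359). Zbtb16 ran from 3.94 to 7.98 FPKM in WT and from 5.35 to 11 FPKM in KO, lowest at CT00 in both. Its slope was 0.11 ± 0.04 in WT (adjusted p = 0.0455), which was lost in 12 of 24 fits that each left out 1 time point, and 0.22 ± 0.03 in KO (adjusted p = 1.4e-05). Without day 1 the WT slope of Zbtb16 was -0.05.

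Sgk1, Errfi1 and Tsc22d3 had different slopes in the 2 genotypes. Errfi1 and Tsc22d3 moved further apart and Sgk1 closer together. Sgk1 fell in WT from 87.8 ± 6.36 to 76.4 ± 4.52 FPKM (slope -0.09 ± 0.02, limma, adjusted p = 0.00185), and in KO went from 47.7 ± 4.11 to 51.8 ± 5.24 FPKM (slope 0.06 ± 0.03, adjusted p = 0.0816). Errfi1 rose in WT from 76.4 ± 6.58 to 92.1 ± 1.49 FPKM (0.14 ± 0.02, adjusted p = 9.62e-06) and in KO went from 25.4 ± 0.835 to 24.0 ± 1.56 FPKM (-0.04 ± 0.02, adjusted p = 0.183). Tsc22d3 was at 76.4 ± 8.02 and 72.2 ± 5.87 FPKM in WT and rose from 102 ± 6.31 to 125 ± 8.35 FPKM in KO (0.14 ± 0.02, adjusted p = 2.82e-05). The slopes of these genes and of Ddit4 differed between genotypes, 4 of 9 members where 26.4% of 15065 genes did, with differences of 0.16 ± 0.03 for Sgk1, -0.17 ± 0.03 for Errfi1 and 0.18 ± 0.04 for Tsc22d3 (adjusted p = 0.000406, 3.81e-06 and 0.00017). Klf9 had a slope of 0.06 ± 0.02 in KO (adjusted p = 0.025) and of -0.01 ± 0.02 in WT, and in WT it was 0.10 and passed without day 3.

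**Figure D2:**
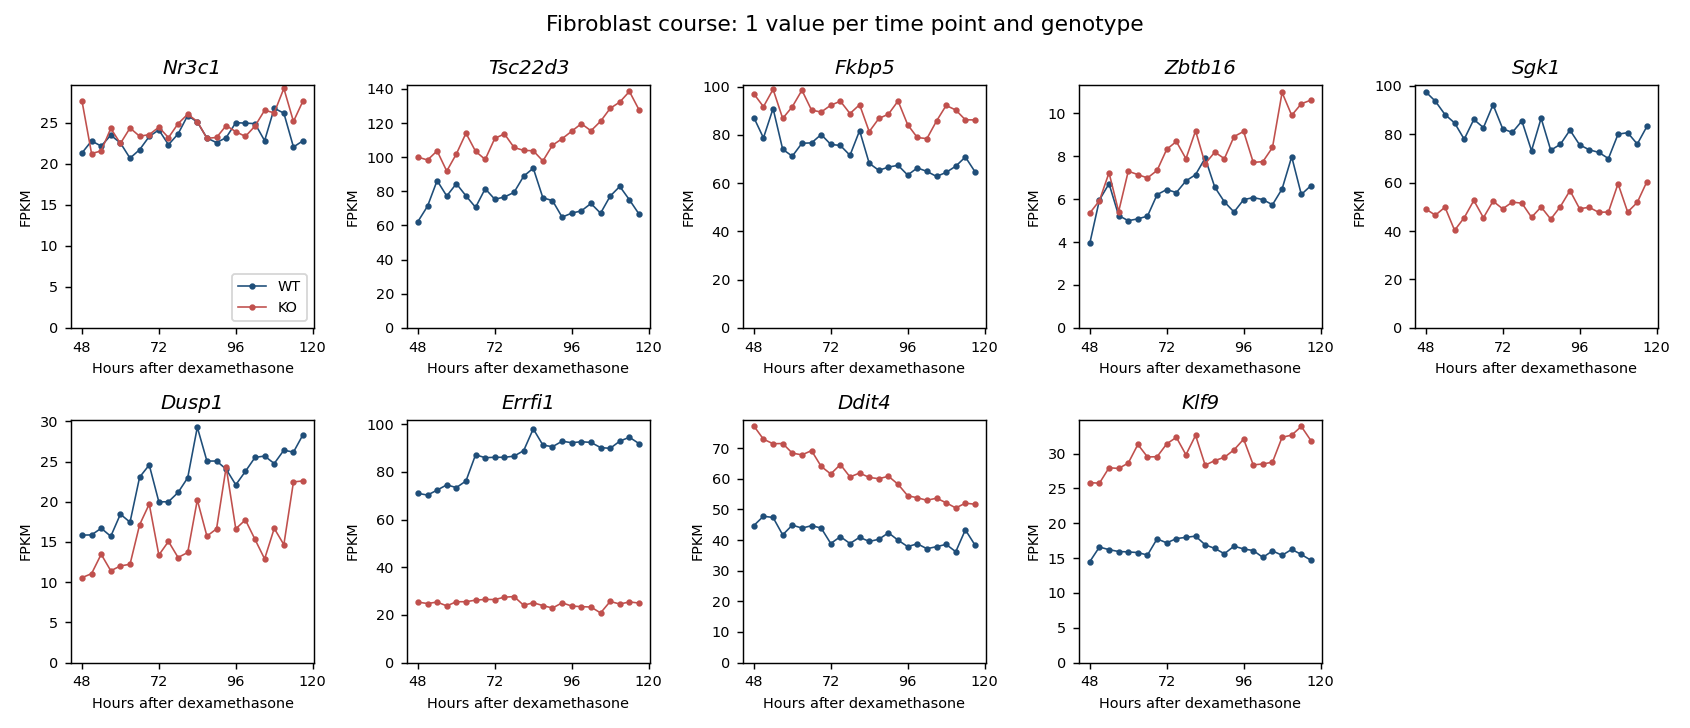
FPKM of 9 genes in WT (blue) and KO (red) fibroblasts against hours after dexamethasone, 1 value per time point. Errfi1 and Sgk1 lie lower in KO at all 24 times, and Tsc22d3, Fkbp5, Ddit4 and Klf9 lie higher.

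Several members lay at different levels in the 2 genotypes of the fibroblast course, and so did markers. Fibroblast markers summed to 1260 to 1829 FPKM in WT and 3064 to 4979 FPKM in KO, endothelial markers to 5.28 to 12.01 and 1.13 to 2.09 FPKM, and cholangiocyte markers to 18.3 to 35.1 and 67.8 to 155 FPKM, and their part in the result was not tested. Errfi1 ran from 70.3 to 98.1 FPKM in WT and from 20.9 to 27.7 FPKM in KO, a difference of -1.75 ± 0.02, and was the only member past both the adjusted p and the size limit of 1 used for genotype in the long courses, where 9.82% of genes were called lower (limma, adjusted p = 2.59e-44). Sgk1 was lower in KO by 0.70 and at all 24 times, and Dusp1 by 0.49 and at 23 of 24 times. Klf9, Ddit4, Tsc22d3 and Fkbp5 were higher in KO at all 24 times, by 0.84 ± 0.02, 0.56 ± 0.02, 0.54 ± 0.03 and 0.31 ± 0.02. With 1 value per time point, these differences have no check on separate cultures.

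No member had a 24 h wave in the fibroblasts that passed the threshold in either genotype (0 of 9). Over all genes 5 passed in WT (0.0341%) and 0 in KO, where 0% is the background. The wave was fitted as a cosine and sine of 24 h with a linear trend. At an unadjusted p below 0.05, 1060 genes passed in WT and 873 in KO. The difference between genotypes passed in 0 of 9 members and in 0.00664% of genes. The widest fitted amplitudes among the members, on the log2 scale, were 0.13 ± 0.03 for Tsc22d3 in WT (limma, adjusted p = 0.431) and 0.20 ± 0.06 for Dusp1 in KO (adjusted p = 0.748).

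In the liver slices, over the same hours, the slope passed in 2 of 10 members in WT, where 20.1% of 14631 genes were called, and in 1 of 10 in KO, where 5.75% of 14224 genes were. Standard errors were wider than in the fibroblasts, 0.05 to 0.24 against 0.01 to 0.05, and whether the courses differ was not tested. Fkbp5 in WT ran from 17.6 to 82.6 FPKM with a median of 31.2, and its day means were 29.0 ± 5.66 FPKM (SD, n = 8 time points) on day 1 and 44.5 ± 21.6 FPKM on day 3. The 2 values that stood out were 82.6 FPKM at CT66 and 73.8 FPKM at CT69, the libraries with high macrophage markers. Its slope was 0.26 ± 0.08 (limma, adjusted p = 0.0319), and 0.14 (adjusted p = 0.299) when those 2 and 4 KO libraries that stood apart (CT09, CT27, CT39 and CT42) were left out. In WT slices 7 of 7 macrophage and Kupffer markers rose over the course, with a median slope of 0.71, and 0 of 6 tested in KO, and their part in the result was not tested. Tsc22d3 and Ddit4 were highest at CT66 in WT as well, at 83.7 and 156 FPKM against medians of 41.6 and 74.7 FPKM.

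Tat fell in WT slices, from 14.9 ± 8.99 FPKM on day 1 to 6.87 ± 3.64 FPKM on day 3, with a slope of -0.51 ± 0.17 (limma, adjusted p = 0.0415), and went from 28.2 ± 41.7 to 9.36 ± 6.53 FPKM in KO (-0.55 ± 0.24, adjusted p = 0.188). The highest Tat value was 130 FPKM at KO CT09, the library with the highest hepatocyte sum, against a KO median of 12.1 FPKM. The WT call for Tat was lost in 10 of 24 fits that each left out 1 time point, and that for Fkbp5 in 6. Errfi1 in KO ran from 63.3 to 352 FPKM with a median of 109, highest at CT00, and its slope was -0.40 ± 0.12 (adjusted p = 0.0432), a call lost in 14 of 24 such fits. Over all genes the slope calls in these fits ran from 2017 to 3325 in WT, against 2948 with all time points. In KO they ran from 251 to 1000, against 818. Without day 3, no slope of a member passed in either genotype.

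Nr3c1 in slices ran from 4.74 to 9.50 FPKM with a median of 6.78 in WT and from 4.503 to 9.16 FPKM with a median of 6.41 in KO. The 2 ranges overlapped almost fully, and its slopes were -0.02 ± 0.05 and 0.02 ± 0.05 per 24 h. Klf9 ran from 26.6 to 56.3 FPKM in WT and 21.1 to 57.2 FPKM in KO, and Dusp1 from 60.4 to 153 FPKM and 42.7 to 140 FPKM. Zbtb16, the lowest member, ran from 1.78 to 4.07 FPKM in WT and 0.823 to 4.71 FPKM in KO. No difference of slopes between genotypes passed for a member, where 0.0687% of genes did.

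**Figure D3:**
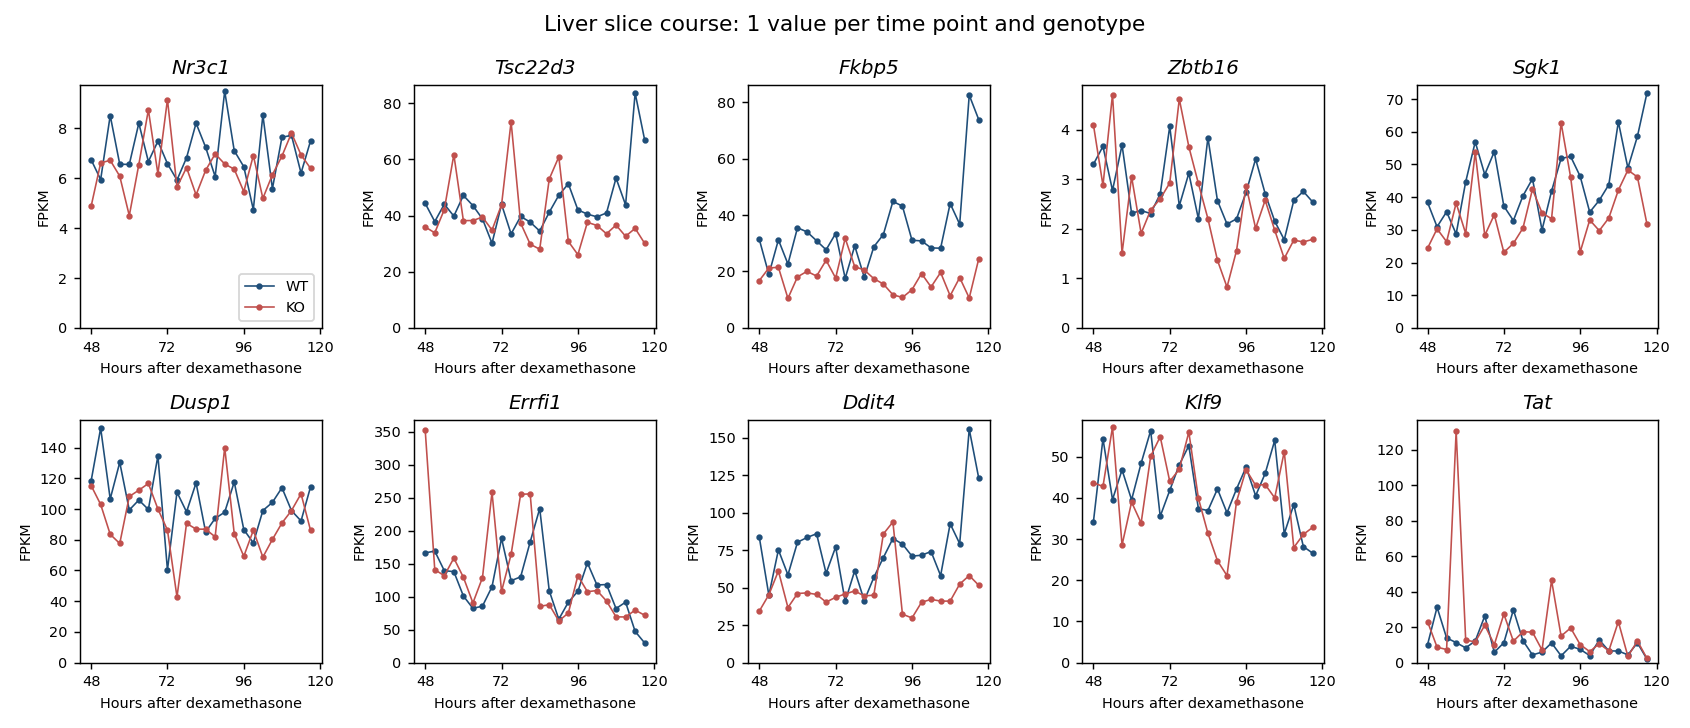
FPKM of the 10 genes in WT (blue) and KO (red) liver slices against hours after dexamethasone, 1 value per time point. Fkbp5, Tsc22d3 and Ddit4 peak at the 2 last WT time points, and Tat has a single high value of 130 FPKM in KO at CT09.

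**Figure D4:**
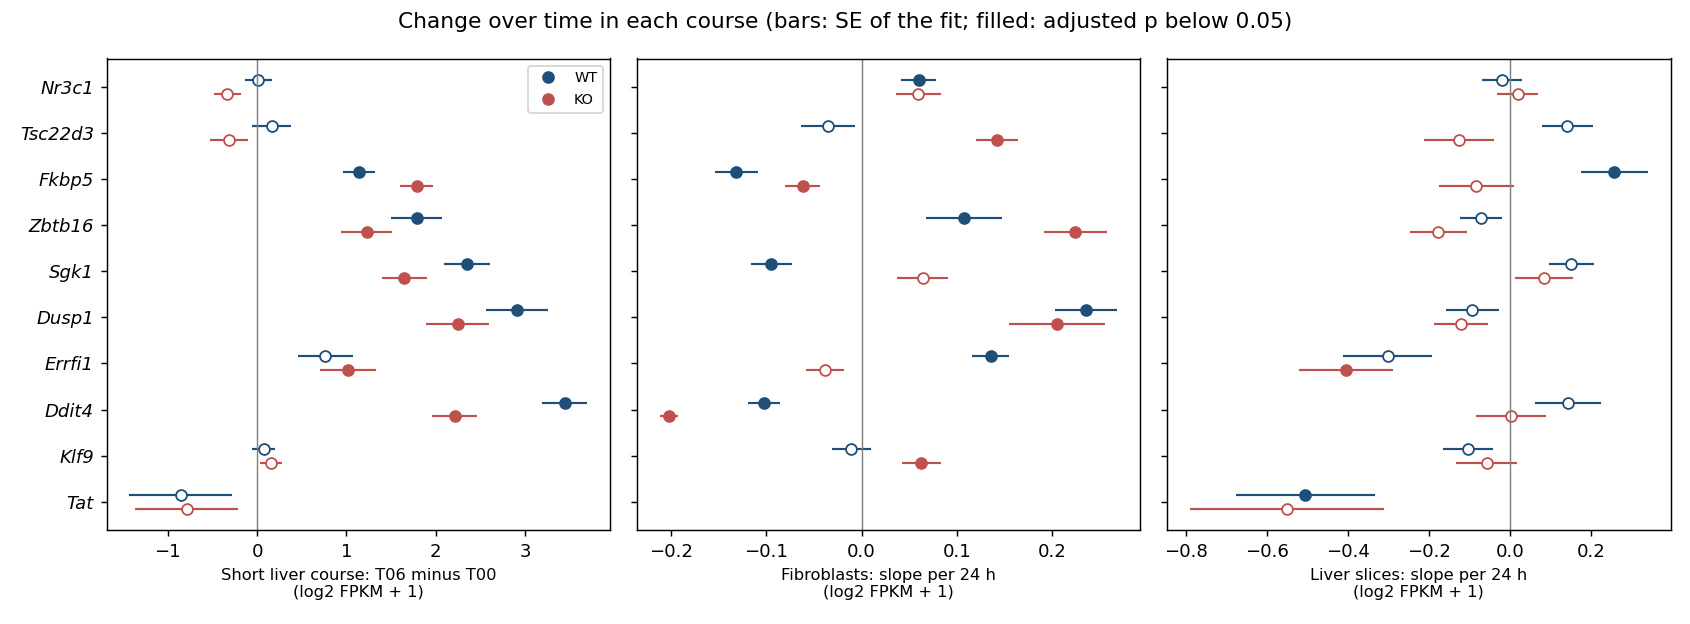
Change of each gene with its SE on the log2(FPKM + 1) scale in WT (blue) and KO (red): T06 minus T00 in the short course, and the slope per 24 h in fibroblasts and slices. Filled points passed an adjusted p of 0.05, and the rises of Ddit4, Dusp1, Sgk1, Fkbp5 and Zbtb16 in the short course lie at 1.14 to 3.44, against slopes of -0.55 to 0.26.

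A 24 h wave passed in 2 members in KO slices, Sgk1 with an amplitude of 0.32 ± 0.09 and a fitted peak at 14.8 h of the labelled time (limma, adjusted p = 0.0493) and Zbtb16 with 0.33 ± 0.09 and a peak at 3.74 h (adjusted p = 0.0447), where 11.2% of genes passed. Dusp1 had 0.30 ± 0.08 and missed it narrowly (adjusted p = 0.0501). In WT slices no member passed, where 1.98% of genes did, and the nearest were Sgk1 (0.27 ± 0.07, adjusted p = 0.0691) and Fkbp5 (0.38 ± 0.10, adjusted p = 0.0756). The calls in KO were lost in 17 of 24 fits without 1 time point for Sgk1 and in 16 for Zbtb16. Over all genes the KO wave calls in these fits ran from 63 to 2209, against 1594 with all time points. The waves were not shown to differ between genotypes in any member, where 4.13% of genes differed, and the adjusted p were 0.0839 for Fkbp5 and 0.222 or more for the others.

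Genotype in slices depended on how the libraries were scaled. As deposited, the median of all genes was lower in KO by 0.34, and no member passed the size limit of 1, where 5.23% of genes did. Fkbp5 was the member furthest apart, with a mean of 34.8 ± 15.2 FPKM (SD, n = 24) in WT and 17.9 ± 5.13 FPKM in KO, lower in KO at 21 of 24 times, a difference of -0.88 ± 0.11 (limma, adjusted p = 9.86e-10). Ddit4 was lower by 0.63 ± 0.10 and at 19 of 24 times. After median-of-ratios rescaling the differences were -0.50 for Fkbp5 and -0.23 for Ddit4, and the sign turned to higher in KO for Nr3c1, Tsc22d3, Zbtb16, Sgk1, Dusp1 and Klf9. Over all genes the calls were 22.6% higher as deposited and 59.0% higher after rescaling.

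Macrophage markers moved with Fkbp5 in the slices. The 7 macrophage and Kupffer markers summed to 173 to 3520 FPKM in WT with a median of 708 and to 62.9 to 320 FPKM in KO with a median of 144, and no marker was at 0 in all libraries of a genotype. Over the 24 WT libraries Fkbp5 followed this sum with a Pearson r of 0.90 on the log2 scale, and of 0.83 over the 22 libraries left without CT66 and CT69. In KO r was 0.51 (n = 24). Over WT alone, r was 0.81 for Ddit4, 0.84 for Sgk1, -0.84 for Errfi1 and 0.17 for Nr3c1. Without CT66 and CT69 it was 0.68 for Ddit4, 0.79 for Sgk1 and -0.72 for Errfi1, and in KO the sign was opposite for these 3 genes, at -0.44, -0.39 and 0.22. The pattern in WT was not particular to macrophage markers. With the endothelial sum, r over the WT libraries was 0.80 for Fkbp5, 0.71 for Ddit4, 0.85 for Sgk1 and -0.85 for Errfi1. With the hepatocyte sum the signs were opposite, at -0.78, -0.62, -0.74 and 0.84 for the same genes. Tat followed the hepatocyte sum, with r of 0.64 in WT and 0.94 in KO. These values share library and depth, and their part in the results above was not tested.

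**Figure D5:**
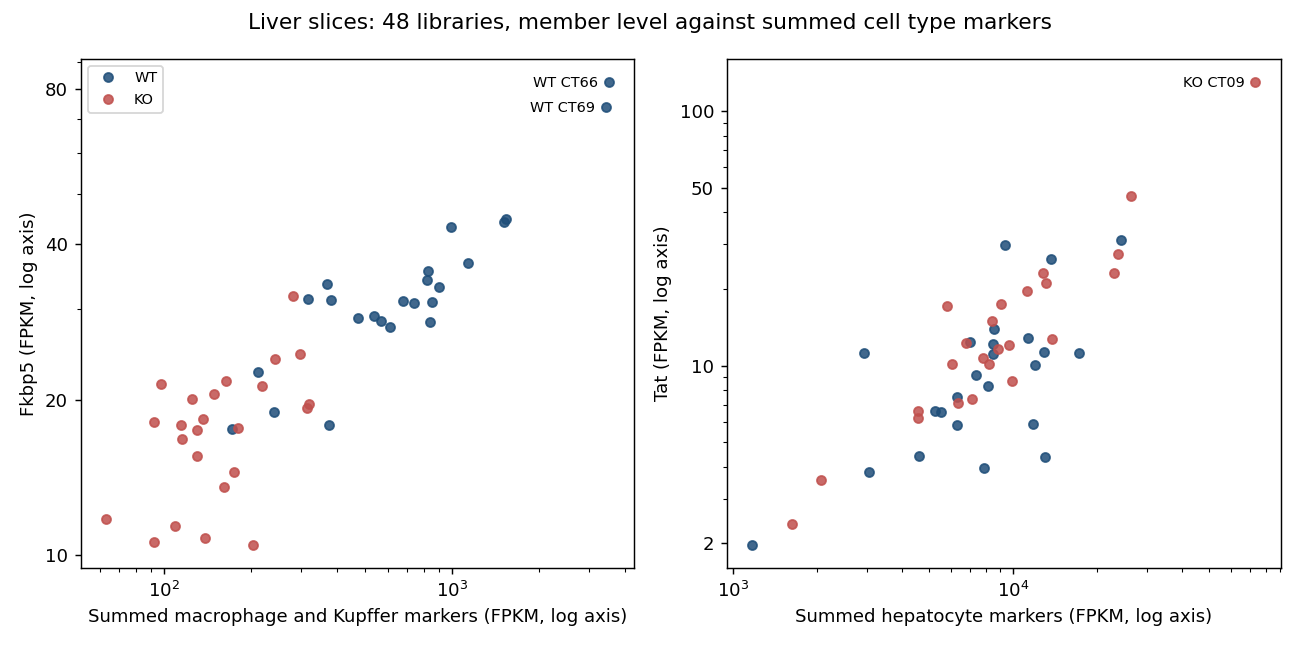
Fkbp5 against summed macrophage and Kupffer markers and Tat against summed hepatocyte markers in the 48 slice libraries, FPKM on log axes, WT in blue and KO in red. WT CT66 and WT CT69 are highest in both the macrophage sum and Fkbp5, and KO CT09 in both the hepatocyte sum and Tat.

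The other lists in the long courses had these counts. Among the further glucocorticoid-induced genes, 13 of 19 had a slope in WT fibroblasts, 7 higher and 6 lower, and 11 of 19 in KO, 9 higher and 2 lower, where 31.1% and 26.3% of all genes did. Irs2, an adaptor of insulin signalling, rose by 0.24 ± 0.02 per 24 h in WT fibroblasts (limma, adjusted p = 1.41e-09). In slices 4 of 19 had a slope in WT and 1 in KO, close to the 20.1% and 5.75% of all genes. In the slices, 2 genes of the list of chaperones, cofactors and steroid handling fell in both genotypes: Hsd11b1, the enzyme that regenerates active glucocorticoid, by 0.66 ± 0.13 in WT and 0.94 ± 0.23 in KO, and Serpina6, the plasma carrier of corticosteroids, by 0.91 ± 0.19 and 0.95 ± 0.25. In WT fibroblasts Hsd11b1 rose by 0.76 ± 0.05 per 24 h and ranged from 3.01 to 20.9 FPKM over the course. Of the list of chaperones, cofactors and steroid handling, 8 of 13 passed in WT slices, 7 lower, and 2 of 13 in KO, both lower.

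Genes with the most similar profiles to 3 of the members were taken by Pearson r on the log2 scale among genes averaging 5 FPKM or more. Over the 24 short-course libraries these were Gm5096, Coq8a and Bche for Tsc22d3 (r = 0.91, 0.90 and 0.90), 2310022B05Rik, Krt18 and Pfkfb3 for Fkbp5 (0.94, 0.93 and 0.93), and 1190002N15Rik, Ubl3 and Sppl2a for Nr3c1 (0.75, 0.74 and 0.74). Over the 48 slice libraries they were Sdf2, Lgals3 and Mmp19 for Tsc22d3 (0.78, 0.72 and 0.72), Ms4a4a, Cyba and Wnk1 for Fkbp5 (0.95, 0.93 and 0.93), and Chac2, Eef1akmt2 and Gm8203 for Nr3c1 (0.53, 0.52 and 0.50). No gene was as close to Nr3c1 as to Fkbp5 in either course. The order of levels differed between the tables. In WT fibroblasts the means ran from Errfi1 (86.2 FPKM) over Sgk1 (81.4), Tsc22d3 (75.8) and Fkbp5 (72.2) down to Zbtb16 (6.12), and these 4 at the top overlapped with their neighbours. In WT slices they ran from Errfi1 (120 FPKM) and Dusp1 (105), which overlapped, to Nr3c1 (7.02) and Zbtb16 (2.76), whose ranges did not meet.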

How the data were processed

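RNA-seq of poly(A) RNA was made with a stranded kit, per the labels' protocols. Reads of 50 bases are recorded here for the fibroblasts and slices, and no read length for the short course. For the FPKM the authors deposited, the submitters' processing notes name TopHat2 2.1.0, Cuffdiff and GRCm38 without their order, and the release of the annotation is not given in the sources used here. As deposited, the values are FPKM in 3 tables of 24, 48 and 48 columns, normalized separately, and the 336 deposited samples are sequencing runs that the tables combine. For fibroblasts, 118 genes whose Cuffdiff status was not OK were removed. Read counts are not in these values, so no count test, interval or detection floor was computed.

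From FPKM, log2(FPKM + 1) was tested with limma 3.58.1 (R 4.3.3) with empirical Bayes variance over genes averaging 1 FPKM or more in the samples fitted, with two-sided p adjusted by Benjamini-Hochberg over all genes tested and a threshold of 0.05. The short course was fitted with 8 groups of genotype and time, and each long course per genotype with a linear trend and 24 h cosine and sine terms, and for genotype differences over both genotypes, where a size limit of 1 was added. Columns were mapped to groups by their names and the sample titles. One run of KO T00 replicate 3 carries T06 in another label and was kept as T00. Scripts were tested on simulated data. Summaries used Python 3.11.15 with numpy 2.4.6 and pandas 2.3.3, and figures matplotlib 3.10.9.

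Named were the 10 members, genes from 4 lists, each among the up to 4 with the smallest p of its list in the comparison described, the 3 genes most like each of Tsc22d3, Fkbp5 and Nr3c1, and Arntl. Klf15 is named outside this rule. The members and lists were chosen with earlier results of these data known. Alternatives were another pseudocount, no filter, median-of-ratios rescaling, a replicate block, single libraries, time points and days left out, and other trend terms. Leaving out KO T12 replicate 2 and KO T24 replicate 2 together was chosen after seeing the data.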

Additional observations from a re-analysis of the deposited data

Results flagged for a closer look

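Between genotypes, 4 fibroblast slopes per 24 h differed by the test of the difference itself (limma, Benjamini-Hochberg adjusted p below 0.05). KO minus WT was 0.18 for Tsc22d3, 0.16 for Sgk1, -0.17 for Errfi1 and -0.10 for Ddit4. Each genotype has 1 value per time point and its own pool labels, so genotype and lane cannot be told apart.

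In the short course the change from T00 to T24 differed between genotypes for Zbtb16, by -1.65, and for Ddit4, by -1.46, both as KO minus WT. These use the same T00 libraries as the other times. Neither gene passed the interaction of time and genotype over all times, and neither passed for a genotype difference at T24 itself. At T00 every KO value of both genes lay above every WT value, so the starting levels differed.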

How the results depend on the processing

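Values here are members called, with no share of all genes beside them, so a shift cannot be read as particular to the members. In the short course, time by genotype went from 0 to 1 with a pseudocount of 0.1, with the replicate block, and without KO T12 replicate 2 and KO T24 replicate 2 together, and genotype went from 6 to 1 with the block. Same-numbered samples deviated together with r above 0.1 in 6 of 36 pairs, and 19 of 24 libraries correlated best with their own number. The titles number the source as well as the replicate but do not say whether it is the same animal at all times. These values do not settle the pairing. The main fit took the libraries as independent. If they are paired, its p-values for the genotype average may be too low. Those for changes between times may then be too high where paired libraries deviate together. Fibroblast slopes went from 7 to 1 in WT without day 1, from 6 to 2 in KO without day 1 and 3 without day 3, and their difference from 4 to 7 without 24 h terms and 2 without day 1 or day 3. Slice slopes in WT went from 2 to 0 with no filter, without day 3 or without the 6 libraries that stood apart, 5 without 24 h terms and 1 with day as a factor. In KO they went from 1 to 0 with no filter, day as a factor, or without day 1 or day 3, and to 3 without the 6 libraries. Slice waves went from 0 to 4 in WT with day as a factor, from 2 to 0 in KO with no filter, without day 2, without day 3 or without the 6 libraries, and their difference from 0 to 1 with day as a factor. The fibroblast slope in WT reversed for Zbtb16 without day 1 (-0.048) and for Klf9 without day 3 (0.10). The cause was not tested.

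Leaving out 1 library or time point gave 7 to 7 members for time in WT, 7 to 9 in KO, 0 to 2 for time by genotype, 5 to 6 for genotype, 5 to 6 for T06 in WT and 5 to 7 in KO. Over all genes the counts were 7090 to 8557 for time in WT and 8442 to 9314 in KO. They were 108 to 1017 for time by genotype, 1922 to 2669 for genotype, 4626 to 6475 for T06 in WT and 4184 to 6185 in KO. Leaving out 1 time point gave 6 to 7 members for fibroblast slopes in WT, 5 to 7 in KO and 4 to 6 for their difference. Over all genes these counts were 4229 to 4571, 3513 to 3921 and 3685 to 4011. In slices it gave 0 to 4 members for slopes in WT, 0 to 1 in KO, 0 to 2 for waves in WT, 0 to 3 in KO and 0 to 1 for their difference. Over all genes the slice slopes ran from 2017 to 3325 in WT and from 251 to 1000 in KO. The waves ran from 0 to 1041 in WT, 63 to 2209 in KO and 71 to 1112 for their difference.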
